A study of Homo sapiens with 15 samples.

Results

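The 10 genes described here encode the enzymes that make serine, pass its carbon to folate and move serine and other small neutral amino acids across the plasma membrane. They were chosen by name, with earlier results of these data known. They were found among 57820 gene identifiers by their symbols, and all 10 were counted in every library. Serine is built from the glycolytic intermediate 3-phosphoglycerate by PHGDH, PSAT1 and PSPH in sequence. The serine hydroxymethyltransferases SHMT1 (cytosol) and SHMT2 (mitochondria) then split serine into glycine and a one-carbon unit held by folate, and MTHFD1, MTHFD1L and MTHFD2 interconvert those units for the synthesis of purines, thymidylate and methyl groups. SLC1A4 (ASCT1) and SLC1A5 (ASCT2) are sodium-dependent exchangers of serine and related amino acids, and proliferating tumour cells draw heavily on the whole route.

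RNA-seq was performed on total RNA of A673 cells, an Ewing sarcoma line driven by the EWS/FLI fusion, in 5 conditions with 3 libraries each. All cells received a retroviral shRNA on day 1 and a retroviral vector on day 5, and were kept in 2 µg/mL puromycin and 400 µg/mL hygromycin B until day 16. iLuc cells carried an shRNA against luciferase with an empty vector and kept endogenous EWS/FLI (endo-EF), while iEF cells carried an shRNA against EWS/FLI with an empty vector. The rescued cells carried the EWS/FLI shRNA with cDNA of wildtype EWS/FLI (WT-EF), of Δ22 (named del22 in the labels), from which the EWS domain is deleted, or of DAF, in which tyrosines of that domain are replaced by alanine. Every condition is a derivative of 1 cell line, and the cDNAs were expressed from a retroviral backbone. The study's design scheme gives transduction and rescue as the steps of each replicate. The main tests by edgeR took replicate number as a block, so their p-values measure how condition differences varied between such sets of 1 line.

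Libraries held between 28659475 and 41859880 counts (median 32943231), and the members between 468 and 11647 counts in a library. Processed pseudogenes held at most 0.344% of the counts of a member, while SHMT1 overlaps SMCR8, SHMT2 overlaps NDUFA4L2, MTHFD1 overlaps ZBTB25 and MTHFD2 overlaps SLC4A5, and whether the counting used strand is not given in the sources used here. FLI1, whose count includes the FLI part of the fusion, was at 48.0, 47.8 and 52.4 CPM (counts scaled to a common library size by the TMM method) in iLuc and at 12.9, 15.5 and 15.3 in iEF. It was at 16.0 to 18.7 CPM in WT-EF, 24.4 to 36.2 in Δ22 and 22.1 to 27.3 in DAF, so every library of both mutants carried more FLI1 signal than any WT-EF library (DAF against WT-EF adjusted p = 0.00264 by edgeR, while Δ22 against WT-EF was not tested). Against iEF, FLI1 was 2.13-fold higher in Δ22 and 1.67-fold higher in DAF (adjusted p = 0.000446 and 0.000335), but in WT-EF its 1.21-fold difference did not pass (adjusted p = 0.0538). The shRNA was aimed at the untranslated end of the endogenous transcript, and rescue used cDNAs. FLI1 counts of endogenous and cDNA transcripts may therefore cover unlike stretches and do not measure the degree of rescue. For the protein, the paper describes a Western blot with rescue by the tagged constructs. Of the Ewing sarcoma markers listed, CD99 had at most 3 counts in a library and occurs under 2 identifiers in the table. CCND1, STEAP1, NR0B1 and LIPI had at least 114 counts, and NKX2-2 and GLI1 had 16 to 210 and 3 to 287. Against iEF, 5 of the 6 tested were higher in iLuc and 5 in WT-EF, beside 19.5% and 12.9% of all genes. In Δ22 0 were higher and in DAF 3, beside 0.472% and 5%, and 0 were lower in each. NR0B1 averaged 55.0 CPM in iLuc, 5.71 in iEF, 49.2 in WT-EF, 10.7 in Δ22 and 28.8 in DAF. LIPI averaged 213, 6.87, 140, 10.3 and 16.9 CPM in the same order. Of the markers of other cell types, CDH1 and CD3E had at most 3 counts and KRT18 had 682 to 2750. Of 7 such markers tested, 1 was higher (EPCAM) and 1 lower (KRT18) in iLuc than in iEF, beside 19.5% and 22.1% of all genes. Their summed level ran from 28.2 CPM in an iLuc library to 111 CPM in a DAF library. In bulk RNA, fewer expressing cells and less RNA per cell cannot be told apart.

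Promoters of the members are shown first because several members moved together. RefSeq promoters (GRCh38.p14, from 250 bases before to 50 after each transcription start) were matched for 8 of the 10 members, and PSPH and SHMT2 had none. The letter patterns searched on both strands were the ETS core GGAA, its tandem GGAAGGAA as found in EWS/FLI microsatellites, the ATF4/CEBP composite element TGATGNAA, and the E-box CACGTG bound by MYC. The ETS core is too common to single out a gene, since 95.5% of all 35116 promoters held it, and every member promoter did too. The tandem GGAAGGAA, which contains the core, occurred in 3.67% of all promoters and in no member promoter. The 120 bases upstream of the start of PHGDH and PSAT1, the members with the widest range, are printed with the core in capitals (TTCC where it lies on the other strand), at chr1:119711814-119711933 and chr9:78297005-78297124, both on the plus strand.
PHGDH: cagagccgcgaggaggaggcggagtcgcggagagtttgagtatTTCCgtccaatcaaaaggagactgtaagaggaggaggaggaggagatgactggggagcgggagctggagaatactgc
PSAT1: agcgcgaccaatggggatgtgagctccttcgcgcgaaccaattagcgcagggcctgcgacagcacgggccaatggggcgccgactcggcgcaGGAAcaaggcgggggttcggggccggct

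The composite element TGATGNAA was present in 3.62% of all promoters. Some members had more than 1 promoter, numbered as listed, and the element was not in all of them. It was in promoters 1, 2 and 3 of MTHFD1L, whose windows overlap, but not in promoter 4. For SLC1A4 it was in promoter 2 and not in promoter 1. For SLC1A5 it was in promoter 3 and not in promoters 1 and 2. For each gene 1 window of 30 bases is shown, from MTHFD1L promoter 1, SLC1A4 promoter 2 and SLC1A5 promoter 3. They are shown because MTHFD1L and SLC1A4 moved in opposite directions after EWS/FLI depletion. The capitals mark the element, which reads TTGCATCA where it lies on the other strand. The windows are chr6:150866346-150866375 (plus strand), chr2:64989381-64989410 (plus) and chr19:46784893-46784922 (minus), in that order.
MTHFD1L: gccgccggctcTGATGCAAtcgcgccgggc
SLC1A4: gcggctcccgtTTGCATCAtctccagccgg
SLC1A5: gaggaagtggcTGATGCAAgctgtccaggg

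The 3 matches had the same 8 letters. The E-box was present in 7.26% of promoters. It was in the promoter of MTHFD1, in promoters 1, 2 and 3 of MTHFD1L, and in promoter 2 only of SLC1A5. PHGDH, PSAT1, SHMT1 and MTHFD2 held none of the 3 longer patterns in these windows, which says nothing about more distant elements.

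The first comparison asked how the route depends on endo-EF. Of the 10 members, 7 were higher in iLuc than in iEF and 1 was lower at an adjusted p under 0.05 (edgeR's quasi-likelihood test, Benjamini-Hochberg over 28793 genes), where 19.5% of all genes tested were higher and 22.1% lower. PSAT1, PHGDH and SLC1A4 had changes of over 2-fold, PSPH, MTHFD2, SHMT1 and MTHFD1 had smaller ones, and MTHFD1L was the member with more RNA in the depleted cells. The median log2 fold change of the members was 0.49, against 0.04 for all genes. All genes here are those averaging at least 1 count per library, whereas the members had at least 468, so their counts are unlike.

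PHGDH, the first and committing enzyme of serine synthesis (chr1:120191034-120286841, GRCh37, plus strand), was at 226, 308 and 266 CPM in iLuc and at 64.5, 112 and 96.9 CPM in iEF. The groups did not overlap, and replicate 1 was the lowest library in both. The log2 fold change was 1.58 ± 0.12 (SE), a 2.98-fold difference (adjusted p = 1.17e-07). PSAT1, the aminotransferase that follows (chr9:80912041-80945009, plus strand), was at 104, 126 and 117 CPM in iLuc and at 26.4, 43.9 and 35.1 CPM in iEF, again without overlap. Its log2 fold change of 1.75 ± 0.16 was the largest of the 10 (3.36-fold, adjusted p = 4.93e-07). PSPH, the phosphatase that releases serine, was at 64.9, 78.3 and 73.8 CPM against 42.9, 53.7 and 48.2 CPM. The groups were apart by less, with a 1.50-fold difference (adjusted p = 4.80e-05). Summed over the 3 enzymes, the pathway held 454 ± 59.2 CPM in iLuc and 175 ± 38.4 CPM in iEF (SD, n = 3).

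**Figure D1:**
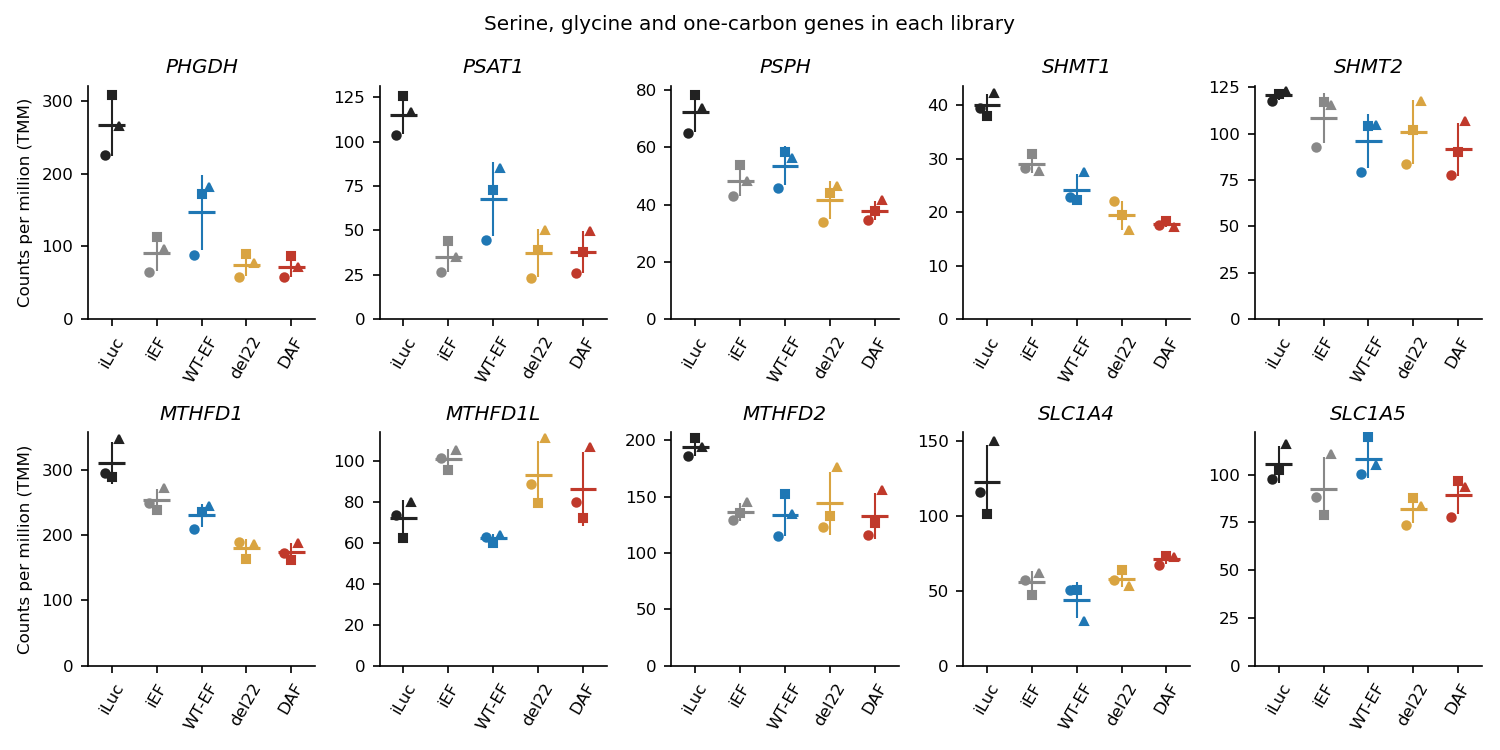
CPM (TMM-scaled, y axis from 0) of each of the 10 genes in the 15 libraries, by condition. Circles, squares and triangles are replicates 1, 2 and 3, horizontal lines are means and vertical lines are the SD of 3 libraries. PHGDH and PSAT1 in iLuc sit above every other library, the WT-EF means lie between, and MTHFD1L shows the opposite order of iLuc and iEF.

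Of the 5 folate enzymes among the members, SHMT1, MTHFD1 and MTHFD2 were higher and MTHFD1L was lower in iLuc than in iEF, and SHMT2 did not pass. SHMT1, the cytosolic hydroxymethyltransferase, was at 39.5, 38.0 and 42.3 CPM in iLuc and 28.3, 31.0 and 27.7 CPM in iEF (log2 fold change 0.46 ± 0.12, adjusted p = 0.00496). SHMT2, its mitochondrial partner, was at 118 to 123 CPM in iLuc and 92.6 to 117 CPM in iEF. These ranges were next to each other without overlapping, and the log2 fold change of 0.17 (95% interval -0.02 to 0.36) did not pass (adjusted p = 0.155). MTHFD1, the trifunctional cytosolic enzyme, was at 296, 289 and 348 CPM against 250, 238 and 272 CPM (log2 fold change 0.29 ± 0.08, adjusted p = 0.00741). Its call was lost when the replicate 3 libraries were left out (adjusted p = 0.0829), when replicate 1 or 2 was (0.0517 and 0.0506) and without iLuc replicate 3 alone (0.0694), while SHMT1 lost its call without the replicate 1 libraries (0.0563).

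MTHFD1L (chr6:151186815-151423023, GRCh37, plus strand), the mitochondrial formate-releasing synthetase, was the exception. It stood at 73.6, 62.2 and 79.8 CPM in iLuc and at 101, 95.2 and 105 CPM in iEF. Every iEF library exceeded every iLuc library, and the level in iEF was 1.41-fold higher (log2 fold change -0.49 ± 0.10 for iLuc minus iEF, adjusted p = 0.000707). MTHFD2, the mitochondrial dehydrogenase and cyclohydrolase that acts just before it, went the other way, at 186, 202 and 194 CPM in iLuc and 129, 135 and 145 CPM in iEF (1.43-fold, adjusted p = 0.00109).

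Of the exchangers, SLC1A4 (chr2:65215611-65250999, GRCh37, plus strand) was at 116, 101 and 150 CPM in iLuc and at 57.0, 47.5 and 62.1 CPM in iEF. The lowest iLuc value was clear of the highest iEF value, and the difference was 2.20-fold (log2 fold change 1.14 ± 0.19, adjusted p = 0.000169). SLC1A5, the main glutamine exchanger of many tumour cells, was at 97.8 to 116 CPM in iLuc and 78.7 to 111 CPM in iEF. These overlapped, and the log2 fold change was 0.19 (95% interval -0.04 to 0.42, adjusted p = 0.182). With upper-quartile scaling, which moved the median of all genes in this comparison by 0.15 on the log2 scale, SHMT2 and SLC1A5 passed as well (adjusted p = 0.00561 and 0.0150). The share of called genes that were higher was 46.9% with TMM and 57.6% with that scaling, and it went from 43.1% to 56.1% in WT-EF and from 36.3% to 48.1% in Δ22 against iEF.

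**Figure D2:**
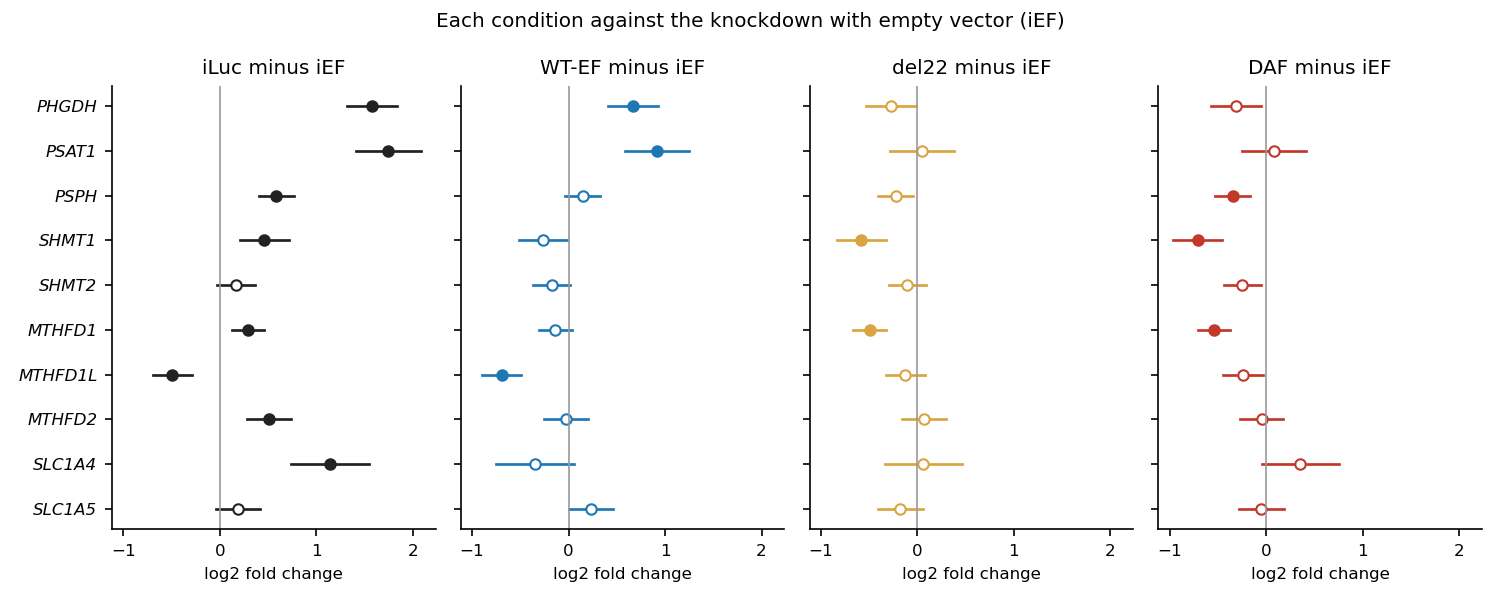
Log2 fold change (x axis) of each gene against iEF in iLuc, WT-EF, Δ22 and DAF, with 95% intervals from edgeR, filled where the adjusted p was under 0.05. In iLuc 8 of 10 genes are filled and in WT-EF 3, in Δ22 2 and in DAF 3, and the only filled points to the right of zero among the rescued conditions are PHGDH and PSAT1 in WT-EF. All 4 comparisons share the iEF libraries.

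The second comparison asked which of these changes WT-EF brought back. In WT-EF, 2 members were higher than in iEF and 1 was lower, beside 12.9% and 17% of all genes tested. PHGDH was at 87.6, 172 and 181 CPM in WT-EF, and its lowest library fell within the iEF range. It was higher than in iEF in each of the 3 replicate sets, by 1.59-fold (log2 fold change 0.67 ± 0.12, adjusted p = 0.000613), although without the replicate block in the model the adjusted p was 0.0587. PSAT1, at 44.6, 72.6 and 85.3 CPM, was above every iEF library and 1.89-fold higher (log2 fold change 0.91 ± 0.15, adjusted p = 0.000372). PSPH was at 45.8, 58.4 and 56.4 CPM, overlapping iEF, with a log2 fold change of 0.15 (95% interval -0.03 to 0.33, adjusted p = 0.226). The 3 synthesis genes together held 268 ± 78.7 CPM.

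MTHFD1L fell in WT-EF to 62.8, 59.8 and 63.7 CPM, the tightest of its groups and below every iEF library (log2 fold change -0.69 ± 0.10, adjusted p = 6.63e-05). It was therefore low in both conditions with an unmutated EWS domain, and WT-EF and iLuc differed by a log2 fold change of -0.20 (95% interval -0.41 to 0.00, adjusted p = 0.168). SLC1A4 did not follow PHGDH and PSAT1. Its WT-EF libraries were at 50.5, 50.6 and 29.7 CPM, with 1 library far below the others, and the log2 fold change against iEF was -0.35 (95% interval -0.75 to 0.05, adjusted p = 0.193). Without the replicate 3 libraries that value was 0.0025.

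The folate enzymes other than MTHFD1L were near or below iEF in WT-EF. SHMT1, at 22.8, 22.2 and 27.5 CPM, lay under every iEF library with a log2 fold change of -0.26 (95% interval -0.51 to -0.01, adjusted p = 0.114), and MTHFD2, at 115, 152 and 135 CPM, spread around iEF (95% interval -0.25 to 0.20). SLC1A5 was at 100.5, 120 and 105 CPM, with a log2 fold change of 0.23 (adjusted p = 0.128). Without WT-EF replicate 3, SHMT1 and SLC1A5 passed (adjusted p = 0.0365 and 0.0387) and 5 members were called in place of 3, and without iEF replicate 3 SLC1A5 did (0.0455).

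Against iLuc, 8 members remained lower in WT-EF and 0 were higher, beside 9.03% of all genes lower and 10.7% higher. No member was higher at an unadjusted p under 0.05 either, by edgeR, and DESeq2 on the counts called 0 higher and 8 lower. SLC1A4 was the furthest from its iLuc level, 2.81-fold lower (adjusted p = 0.000108), followed by PHGDH (1.88-fold, adjusted p = 0.000145), PSAT1 (1.78-fold, adjusted p = 0.00154) and SHMT1 (1.65-fold, adjusted p = 0.000609). MTHFD2, PSPH, MTHFD1 and SHMT2 were lower by 1.46-, 1.36-, 1.35- and 1.27-fold. The count of 8 rested partly on the replicate 1 libraries, without which it was 3, and MTHFD2, MTHFD1, PSPH, PSAT1 and SHMT2 were the genes that lost their call. SHMT2 lost it also without iLuc replicate 1 (adjusted p = 0.149), WT-EF replicate 1 (0.111) or the replicate 2 libraries (0.0815).

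As a share of the difference between iLuc and iEF within a replicate set, WT-EF restored 14.4%, 30.5% and 50.0% for PHGDH, with a mean of 31.6% ± 17.8 (SD, n = 3). For PSAT1 the shares were 23.6%, 35.2% and 61.7% (40.1% ± 19.5), and for PSPH 13.3%, 19.0% and 31.9% (21.4% ± 9.55). The shares of each gene differed by over 2-fold between sets, with replicate 3 highest for all 3 genes. Replicate 3 was not highest for SLC1A4, where the shares were -11.0%, 5.90% and -37.0%, or for MTHFD2, where they were -24.3%, 25.4% and -20.8%. Shares were taken only for called members with an absolute log2 fold change above 0.5, which left out SHMT1, MTHFD1 and MTHFD1L. MTHFD1L averaged 62.1 CPM in WT-EF, 71.9 in iLuc and 100.5 in iEF. SHMT1 and MTHFD1 averaged 24.2 and 230 CPM in WT-EF, against 29.0 and 253 in iEF.

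**Figure D3:**
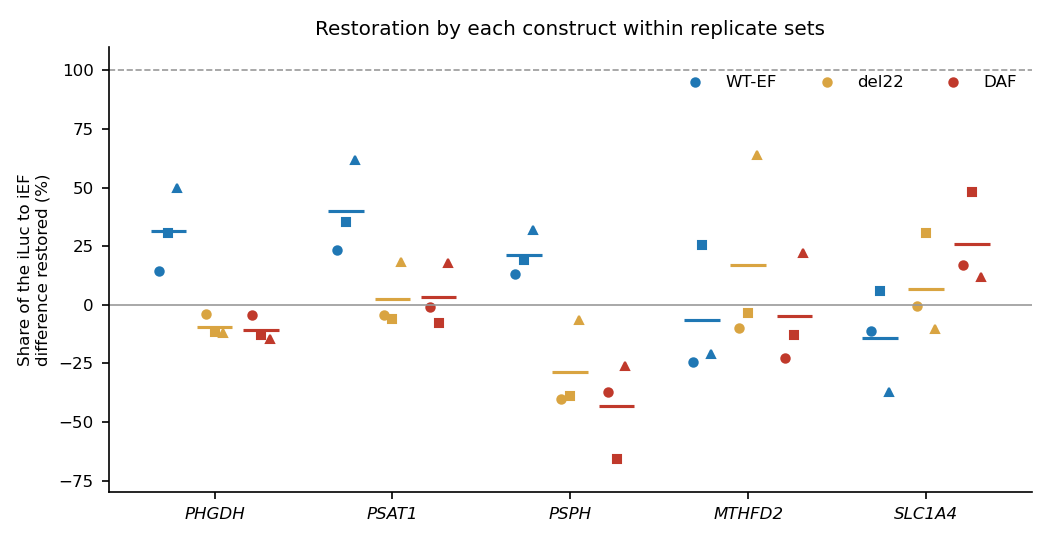
Share of the iLuc to iEF difference restored by WT-EF, Δ22 and DAF (y axis, percent, 0 = iEF level, 100 = iLuc level) within each replicate set, for the 5 members past an adjusted p of 0.05 with an absolute log2 fold change above 0.5. Circles, squares and triangles are replicates 1, 2 and 3 and lines are means. PHGDH, PSAT1 and PSPH are above 0 in all 3 WT-EF sets, and no point shown reaches 100. SHMT1, MTHFD1 and MTHFD1L, also called in iLuc against iEF, were under that log2 cutoff and are not shown.

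The third comparison concerned Δ22 and DAF, the constructs with an absent or mutated EWS domain. No member was called higher than in iEF in either when all 15 libraries and the genes averaging at least 1 count were fitted. SLC1A4 was called higher in DAF in 3 of 18 alternatives. These were no low-count filter, only the 6 libraries compared, and without the replicate 3 libraries (adjusted p = 0.0412, 0.0273 and 0.0183 by edgeR). In Δ22, 0 members were higher than in iEF and 2 were lower, beside 0.472% and 0.83% of all genes. In DAF, 0 were higher and 3 lower, beside 5% and 6.19% of all genes. At an unadjusted p under 0.05, edgeR gave 0 higher in both and 4 lower in Δ22 and 6 lower in DAF, and DESeq2 also called 0 higher and 2 and 3 lower. PHGDH was at 57.9, 89.3 and 76.6 CPM in Δ22 and 57.9, 87.2 and 72.0 CPM in DAF, within or just under the iEF range, and each of the 6 libraries was below the iEF library of the same number. Its log2 fold changes were -0.28 (95% interval -0.53 to -0.02, adjusted p = 0.327) and -0.32 (95% interval -0.57 to -0.06, adjusted p = 0.118). PSAT1 lay at 23.1 to 50.1 CPM in Δ22 and 25.8 to 49.8 CPM in DAF, around iEF.

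The cytosolic folate enzymes fell below iEF in both mutants. MTHFD1 was at 189, 164 and 186 CPM in Δ22 and 173, 161 and 188 CPM in DAF, all under the lowest iEF library of 238. The log2 fold change was -0.49 ± 0.08 in Δ22 (adjusted p = 0.00905) and -0.54 ± 0.08 in DAF (adjusted p = 0.000578). SHMT1 was at 22.0, 19.4 and 16.7 CPM in Δ22 and 17.6, 18.4 and 17.3 CPM in DAF, also under every iEF library. It was 1.49-fold lower in Δ22 (adjusted p = 0.0258) and 1.63-fold lower in DAF (adjusted p = 0.00153). PSPH, at 34.7, 37.6 and 41.5 CPM in DAF, was 1.27-fold lower there (adjusted p = 0.0159).

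The calls in Δ22 were not stable to the libraries used. Without the replicate 1 libraries the adjusted p was 0.112 for SHMT1 and 0.0747 for MTHFD1, and without the replicate 2 libraries 0.438 and 0.253. Without Δ22 replicate 2 alone it was 0.150 for SHMT1 and 0.0975 for MTHFD1, without Δ22 replicate 3 it was 0.150 and 0.0617, and without iEF replicate 1 it was 0.0903 and 0.0532. SHMT1 also lost its Δ22 call without iEF replicate 2 (0.118) or 3 (0.0672). In DAF, PSPH lost its call without DAF replicate 2 (0.156), iEF replicate 1 or 2 (0.0848 and 0.0897) and the replicate 1 or 2 libraries (0.158 and 0.284), while MTHFD1 passed in every fit and SHMT1 reached 0.0506 without the replicate 2 libraries. Without the replicate 3 libraries 5 members passed in DAF, since SLC1A4 (log2 fold change 0.45, adjusted p = 0.0183) and MTHFD1L (-0.35, adjusted p = 0.0297) did.

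Cell-cycle genes moved with these falls. Of 16 proliferation genes, 15 were lower in DAF than in iEF and 5 in Δ22, beside 6.19% and 0.83% of all genes, with medians of the log2 fold change of -0.62 and -0.49 against 0.00 and 0.01 for all genes. Their summed level was 2467 to 2890 CPM in DAF, 2619 to 3435 in Δ22, 3437 to 3702 in WT-EF, 3610 to 4480 in iEF and 4534 to 4813 in iLuc. PCNA, the replication clamp, was at 504 CPM in iLuc, 278 in iEF and 168 in DAF. CCNE2, a cyclin of the start of replication, and TK1, a thymidine kinase, were instead lower in iLuc than in iEF (log2 fold changes -1.34 and -0.89, adjusted p = 1.52e-06 and 6.26e-05), with TK1 at 62.3 CPM in iLuc, 115 in iEF and 67.4 in DAF. The part of these genes in the levels of SHMT1 and MTHFD1 was not tested.

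The fourth comparison set WT-EF against DAF. WT-EF had 5 members higher and 2 lower, beside 12.4% and 16.1% of all genes. The largest difference was in PHGDH, 1.98-fold higher in WT-EF (log2 fold change 0.99 ± 0.12, adjusted p = 3.74e-05), with every WT-EF library above every DAF library, though by as little as 87.6 against 87.2 CPM. PSAT1 was 1.79-fold higher (adjusted p = 0.000889) with overlapping ranges, since both groups varied by replicate set, and higher in all 3 sets. PSPH, SHMT1 and MTHFD1 were higher by 1.41-, 1.36- and 1.32-fold (adjusted p = 0.000512, 0.0104 and 0.00142). The call of SHMT1 was lost without WT-EF replicate 3 (adjusted p = 0.0715) or DAF replicate 3 (0.0525) or the replicate 1 libraries (0.0652), and that of MTHFD1 without the replicate 2 libraries (0.0522). SLC1A5 was at 100.5, 120 and 105 CPM in WT-EF and 78.1, 96.5 and 93.8 in DAF, with a log2 fold change of 0.28 (95% interval 0.05 to 0.51) that did not pass (adjusted p = 0.0655) but did without WT-EF replicate 3 (0.0272).

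MTHFD1L and SLC1A4 were higher in DAF. MTHFD1L was at 79.9, 72.1 and 107 CPM in DAF, all above WT-EF, for a log2 fold change of -0.46 ± 0.10 (WT-EF minus DAF, adjusted p = 0.00229). SLC1A4 was at 67.2, 73.4 and 72.6 CPM in DAF, also clear of WT-EF (log2 fold change -0.71 ± 0.19, adjusted p = 0.0107). All DAF libraries of SLC1A4 exceeded all iEF libraries too, but that difference had a log2 fold change of 0.36 (95% interval -0.04 to 0.76) and did not pass (adjusted p = 0.278). FLI1 signal was lower in WT-EF than in DAF, and its part in these differences was not tested.

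DAF and Δ22 were not distinguished at any member in the fit of all 15 libraries. Of the 10 genes, 0 passed in either direction with edgeR, 0 had an unadjusted p under 0.05, and DESeq2 on the counts also gave 0, beside 0.948% of all genes higher in DAF and 0.379% lower. The interval of the log2 difference was -0.30 to 0.22 for PHGDH, -0.30 to 0.36 for PSAT1, -0.21 to 0.12 for MTHFD1 and -0.38 to 0.13 for SHMT1, so differences of that size remain possible. SLC1A4, the member furthest from zero, was at 56.9, 63.9 and 53.1 CPM in Δ22, below every DAF library, with an interval of -0.10 to 0.69. In the fit of only these 6 libraries it passed (log2 fold change 0.32, adjusted p = 0.00166).

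The balance between mitochondrial and cytosolic enzymes was read as a ratio of counts within each library, which needs no scaling. The MTHFD1L to MTHFD1 ratio was 0.231 in iLuc and 0.270 in WT-EF, 0.397 in iEF, 0.489 in DAF and 0.514 in Δ22. No library of iLuc, WT-EF, Δ22 or DAF overlapped iEF, and each gave an exact two-sided permutation p of 0.1, the smallest that 3 against 3 libraries allow. The SHMT2 to SHMT1 ratio was 3.02 in iLuc, 3.72 in iEF, 3.96 in WT-EF, 5.12 in DAF and 5.19 in Δ22, with exact permutation p of 0.1 for iLuc and DAF, 0.6 for WT-EF and 0.2 for Δ22 against iEF. These permutations took no account of the replicate sets. By set, the log2 ratio was 1.92, 2.39 and 2.82 in Δ22, 1.80, 2.23 and 1.93 in WT-EF, and 1.71, 1.92 and 2.06 in iEF.

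**Figure D4:**
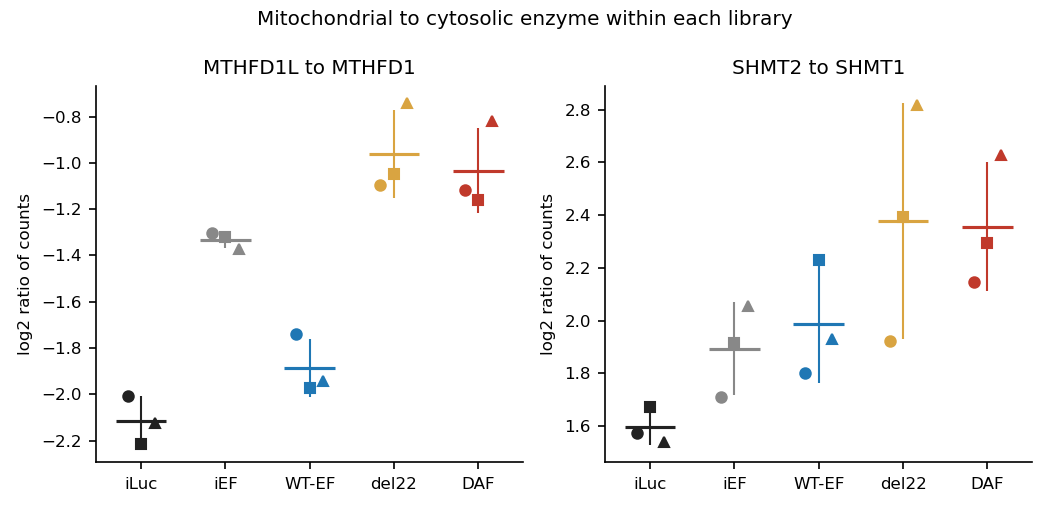
Log2 ratio of counts (y axis) of MTHFD1L to MTHFD1 and of SHMT2 to SHMT1 in each library. Circles, squares and triangles are replicates 1, 2 and 3, horizontal lines are means and vertical lines the SD of 3 libraries. For MTHFD1L to MTHFD1, iLuc and WT-EF lie below iEF, and Δ22 and DAF above it.

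Per kilobase of the canonical transcript, which allows levels to be compared between genes, PHGDH was the most abundant member in iLuc at 143 ± 22.2 CPM per kb, followed by MTHFD1 at 98.6 ± 10.2. In iEF, Δ22 and DAF, PHGDH ranked behind MTHFD1 and SHMT2, at 48.9 ± 13.1, 40.0 ± 8.47 and 38.8 ± 7.85 CPM per kb. PHGDH and SHMT2 did not differ beyond their spread in these 3 groups. In WT-EF, PHGDH was first again at 78.8 ± 27.7, not separated from MTHFD1 at 72.9 ± 5.76. SHMT1 was lowest or next to lowest throughout, from 15.8 ± 0.864 in iLuc to 7.02 ± 0.223 in DAF, and SLC1A4 shared the bottom place in WT-EF at 9.56 ± 2.64 CPM per kb.

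**Figure D5:**
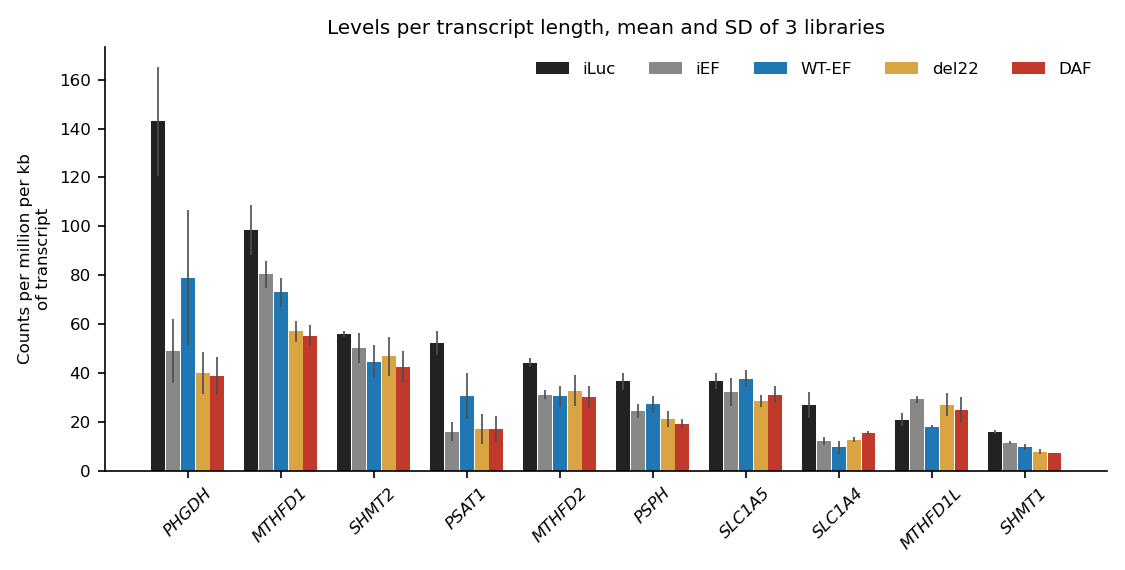
Mean level of each gene in CPM per kilobase of canonical transcript (y axis from 0) in the 5 conditions, with the SD of 3 libraries as error bars, ordered by the iLuc level. PHGDH leads in iLuc and WT-EF, and MTHFD1 leads in iEF, Δ22 and DAF.

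The members differed in order as well as range. Group means spanned 1.89 log2 units for PHGDH, 1.74 for PSAT1 and 1.51 for SLC1A4, and 0.41 for SHMT2 and SLC1A5. iLuc was highest for 8 members, whereas iEF was highest for MTHFD1L and WT-EF for SLC1A5. Over the 15 libraries, after replicate differences were removed, log2 CPM of PHGDH had a Pearson correlation of 0.953 with PSAT1 and 0.953 with PSPH, SHMT1 one of 0.959 with MTHFD1, and MTHFD1L one of -0.655 with PHGDH. These points share conditions and are a description. Among 13168 genes averaging at least 50 counts, those most like PHGDH were RNF145 (0.990), PIH1D1 (0.990) and AKAP7 (0.988). Those most like PSAT1 were PARD6B (0.992), MBTD1 (0.988) and LINC01547 (0.985), and those most like SLC1A4 were RMDN3 (0.949), PSMD10 (0.948) and GNB4 (0.945).

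Neighbouring enzymes of the route were mixed. Of 15 other folate enzymes, 6 were higher in iLuc than in iEF and 3 lower, beside 19.5% and 22.1% of all genes. In WT-EF 1 was higher and 3 lower, beside 12.9% and 17%. In DAF 0 were higher and 6 lower, beside 5% and 6.19%. The medians of the log2 fold change were 0.26, -0.14 and -0.36, against 0.04, -0.01 and 0.00 for all genes. ALDH1L1 and ALDH1L2, which oxidize formyl-folate in the cytosol and in mitochondria, moved apart. ALDH1L1 averaged 12.4 CPM in iLuc and 2.44 in iEF (adjusted p = 5.72e-05), and ALDH1L2 4.16 and 13.1 CPM (adjusted p = 7.10e-06). ALDH1L2 also fell in WT-EF, to 5.78 CPM (adjusted p = 0.000275).

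Of 17 genes that use serine or glycine, 5 were higher and 5 lower in iLuc than in iEF (median log2 fold change 0.51, against 0.04 for all genes), and 1 was higher and 4 lower in WT-EF (-0.05 against -0.01). Among all genes 19.5% were higher and 22.1% lower in iLuc, and 12.9% and 17% in WT-EF, and nothing particular to the list is read from these counts. CBS, which condenses serine with homocysteine, had 137 CPM in iLuc, 39.5 in iEF, 61.1 in WT-EF, 28.4 in Δ22 and 33.2 in DAF, the same order of conditions as PHGDH except between the mutants. CTH, the next step towards cysteine, had 17.8 CPM in iLuc and 7.51 in iEF (adjusted p = 0.000472). GLDC, the decarboxylase of the glycine cleavage system, was lower with endo-EF (1.27 against 6.27 CPM, adjusted p = 2.14e-06) and with WT-EF (0.854 CPM, adjusted p = 8.67e-07). By edgeR, GLDC was also lower than in iEF with DAF (2.95 CPM, adjusted p = 0.00525) but not with Δ22 (6.76 CPM, adjusted p = 0.937). Of 5 methionine-cycle genes tested, AHCY and MAT2B were higher in iLuc and in WT-EF than in iEF (adjusted p in iLuc 1.45e-07 and 5.73e-05), with AHCY at 226, 110 and 144 CPM in iLuc, iEF and WT-EF.

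Of 13 other carriers of serine, glycine and folate, 4 were higher and 3 lower in iLuc than in iEF, beside 19.5% and 22.1% of all genes. Their median log2 fold change was 0.15, against 0.04 for all genes. The mitochondrial serine carriers of the sideroflexin family split, with SFXN3 at 15.7 CPM in iLuc and 47.8 in iEF and SFXN2 at 14.8 and 5.77 (adjusted p = 3.80e-08 and 1.21e-05). SLC25A32, which brings folate into mitochondria, was at 32.7 CPM in iLuc and 76.1 in iEF (adjusted p = 6.97e-07, edgeR). In WT-EF it was also lower than in iEF, at 52.8 CPM (adjusted p = 0.00276). Of 18 targets of ATF4, the amino-acid stress regulator known to drive PHGDH, PSAT1, SHMT2 and MTHFD2, 7 were higher and 5 lower in iLuc. The shares of all genes were 19.5% and 22.1%, and nothing particular to the list is read from these counts. The median log2 fold change of the list was -0.01, against 0.04 for all genes. ATF5 was higher in iLuc (71.8 against 20.0 CPM, adjusted p = 2.26e-06), while NUPR1 (0.345 against 4.61 CPM, adjusted p = 0.000131) and DDIT4 (3.13 against 9.92 CPM, adjusted p = 0.000225) were lower.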

How the data were processed

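Total RNA of A673 cells was sequenced as Illumina ScriptSeq libraries, 3 for each of 5 conditions taken from the sample labels. Reads in pairs were mapped by the authors with STAR (version 2.5.1b in the processing notes) on hg19, and they deposited whole-number counts per gene from htseq-count in intersection-strict mode, without normalization. The authors also deposited estimated counts adjusted with ComBat for each set of replicates (27002 genes), used here as an alternative only, and a table of their own log2 fold changes and p-values, not used here. No use was made of 3 columns of other samples.

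Genes averaging at least 1 count per library (28793 of 57820) were fitted in R 4.3.3 with edgeR 4.0.16 (TMM, quasi-likelihood test, condition plus replicate number as a block, all 15 libraries), with Benjamini-Hochberg adjustment over all genes of a comparison and a threshold of 0.05. The block follows the study's adjustment of each replicate set. Libraries of the same number had a median correlation of their deviations of 0.185 over 30 pairs (lowest -0.183), and those of different numbers -0.0842 over 60 pairs. CPM used TMM library sizes, correlations a prior count of 2, and lengths the Ensembl canonical transcript of GENCODE on GRCh37. Paralog ratios were compared by exact permutation tests that did not use the replicate sets. The scripts were tested on simulated counts.

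The members and gene lists were chosen with earlier results of these data known. Named genes are FLI1, the 10 members, up to 3 genes of each list with the largest absolute log2 fold change among those past the threshold in iLuc or WT-EF against iEF averaging at least 50 counts, and for the 3 members of widest range the 3 most correlated genes. The other genes named are the cell type markers and overlapping genes. Lists held 156 genes, of which 155 were found. Alternatives were DESeq2 size factors, upper-quartile scaling, DESeq2 1.42.0 on both count tables, other low-count filters, no block, only the 6 libraries compared, pseudogene counts added, and each library or replicate set left out. Some genes that the rules on naming or overlap would give are not reported here.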

Additional observations from a re-analysis of the deposited data

How the results depend on the processing

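Over 18 alternatives for each of 70 member comparisons (1260 values), 1149 kept their direction and side of the threshold, 41 lost a call, 26 gained one and 44 changed sign, all of these at differences that had not passed. The members had at least 468 counts in a library, and the effect of depth on the calls was not tested. Each cause below was not tested, apart from fewer samples where libraries were left out.

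Without the replicate block, the members called were 2 in WT-EF against iEF (PHGDH adjusted p = 0.0587), 2 in DAF against iEF (PSPH 0.139) and 6 in WT-EF against iLuc (PSAT1 0.0817, SHMT2 0.152), while 175 genes passed in Δ22 against iEF (375 with the block) and 177 in DAF against Δ22 (382). The block changed no other member call. The study's design scheme describes a replicate as a set of transductions, and its methods adjust each such set for batch.

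Members called in WT-EF against iEF rose from 3 to 5 with upper-quartile scaling and to 5 with a minimum average of 10 counts. In the fit of only the 6 libraries compared, members called rose to 5 in DAF against iEF and 1 in DAF against Δ22, and genes called were 3710 in WT-EF against iLuc (5679) and 2744 in DAF against Δ22. DESeq2 called 1078 genes on the counts and 1099 on the ComBat counts in Δ22 against iEF, and 777 and 755 in DAF against Δ22. With no low-count filter these were 1514 and 1214.

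Leaving out a library or a replicate set gave 3 to 5 members in WT-EF against iEF, 0 to 2 in Δ22, 1 to 5 in DAF and 3 to 8 in WT-EF against iLuc. Genes called were 5621 to 8028, 0 to 629, 1068 to 2747 and 1831 to 6840 in these comparisons, 5245 to 7930 in WT-EF against DAF and 84 to 507 in DAF against Δ22. The 0 in Δ22 came from edgeR without the replicate 2 libraries, where 2421 genes and 3 members had an unadjusted p under 0.05.

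MTHFD2 in WT-EF minus iEF changed sign with DESeq2 size factors (0.0117), upper-quartile scaling (0.0978), DESeq2 on the counts (0.0117) and on the ComBat counts (0.00279), a minimum average of 10 counts (0.0249) and 6 libraries (0.0108), and ran from -0.14 to 0.065 with libraries left out. With libraries left out, SLC1A4 in WT-EF minus iEF ran from -0.58 to 0.0025. In Δ22 minus iEF, PSAT1 ran from -0.16 to 0.17, MTHFD2 from -0.047 to 0.15 and SLC1A4 from -0.12 to 0.23. In DAF minus iEF, PSAT1 ran from -0.10 to 0.23, MTHFD2 from -0.12 to 0.023 and SLC1A5 from -0.21 to 0.078. SLC1A5 in WT-EF minus iLuc ran from -0.053 to 0.21 and MTHFD2 in WT-EF minus DAF from -0.11 to 0.16. In DAF minus Δ22, PHGDH ran from -0.095 to 0.023, PSAT1 from -0.086 to 0.19, MTHFD1 from -0.070 to 0.026 and MTHFD2 from -0.19 to 0.013.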

Other observations

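Of 14 other amino acid transporters, 3 were higher and 7 lower in iLuc than in iEF, and 4 were higher and 5 lower in WT-EF than in iEF, where all genes gave 19.5% and 22.1% in iLuc and 12.9% and 17% in WT-EF. The list's medians of the log2 fold change were -0.33 and -0.06, against 0.04 and -0.01 for all genes. SLC7A2, a carrier of cationic amino acids, averaged 97.3 CPM in iLuc, 13.2 in iEF and 27.8 in WT-EF (adjusted p against iEF 1.42e-07 and 0.00389, edgeR). SLC1A1, the glutamate carrier of the same family as SLC1A4, was the reverse at 21.5, 108 and 28.4 CPM (adjusted p = 3.94e-08 and 6.33e-07), and at 77.3 in Δ22 and 61.7 in DAF. SLC43A1, a leucine carrier, averaged 13.7 CPM in iLuc, 4.99 in iEF and 11.2 in WT-EF (adjusted p = 7.87e-06 and 0.000115).

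Of 20 aminoacyl-tRNA synthetases, 12 were higher and 3 lower in iLuc than in iEF (median log2 fold change 0.37, against 0.04 for all genes). In WT-EF 9 were higher and 4 lower. All genes gave 19.5% and 22.1% in iLuc and 12.9% and 17% in WT-EF. LARS averaged 730.4 CPM in iLuc and 444.5 in iEF (adjusted p = 1.76e-06), while WARS (143 against 438 CPM, adjusted p = 0.000506) and HARS (42.9 against 172 CPM, adjusted p = 1.41e-08) were lower. WARS averaged 180 CPM in WT-EF (adjusted p = 0.00508 against iEF, edgeR). It was at 663 ± 352 CPM in Δ22 and 633 ± 313 in DAF, against 438 ± 79.8 in iEF (SD), and did not pass in Δ22. Of 8 regulators, 2 were higher and 3 lower in iLuc, beside those 19.5% and 22.1% of all genes. MYC averaged 174 CPM in iLuc, 111 in iEF and 140 in WT-EF (adjusted p for iLuc 0.00213), and NFE2L2, a regulator of the oxidative stress response, 49.5, 98.0 and 67.2 CPM (adjusted p = 3.50e-06 and 0.00125). EIF2AK3 and EIF2AK4, kinases that raise ATF4 translation, were lower in WT-EF than in iEF (adjusted p = 0.00279 and 8.69e-06).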
